A study of Mus musculus with 2 samples.

Results

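Megakaryocytes are the large bone marrow cells that shed platelets, and 10 genes known from them were followed here in single cells: Pf4, Vwf, Gp1bb, Gp9, Gp5, Gp6, Cavin2, Plek, Treml1 and Rab27b. They were taken as a list by symbol, and all 10 of 10 were present among the 32285 genes counted in both libraries. The 2 libraries came from mouse bone marrow sorted for CD45.2 and the stem cell factor receptor Kit, taken 10 weeks after transplantation. CD45.2 is taken here to mark donor-derived cells in a transplanted host. One library came from control cells and the other from cells deleted for Utx, the H3K27 demethylase gene also called Kdm6a. The labels give neither the Cre line nor promoter behind the deletion, nor the host, its conditioning or the number of animals. RNA was counted as unique molecular identifiers (UMIs, 1 for each captured molecule) together with 13 surface antibody tags, among them CD41, and 2 hashtag antibodies whose meaning the sources used here do not give.

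With 1 library a group there is no replicate and no test. Each difference below is a difference between 2 libraries, and the 95% intervals (exact Poisson for ratios, exact binomial for shares) cover counting error only. After filtering, 7020 control cells and 7157 cells of the other library remained, with a median of 12402.5 and 11785 UMIs per cell. Of the cell barcodes, 17 occurred in both libraries, 13 of them among the kept cells. Kdm6a itself was at 110 CPM (UMIs of the gene scaled to a library total of 1000000 gene UMIs) in the control library and 103 CPM in the library labelled as Utx-deleted. Counts from the 3′ end of transcripts cannot show the loss of an internal exon, so this gene does not check the label. Maturing-neutrophil-like cells made up 63.3% of the control library and 73.0% of the other.

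The megakaryocyte lineage leaves the stem cell compartment early, and some haematopoietic stem cells already transcribe Vwf and Pf4. GATA1, FLI1 and RUNX1 are the transcription factors best known from this lineage, and many of its promoters carry GATA and ETS motifs. Platelets hold to damaged vessel walls through the GPIb-IX-V receptor (Gp1ba, Gp1bb, Gp9 and Gp5), which binds von Willebrand factor, the product of Vwf. Glycoprotein VI (Gp6) is their collagen receptor. Pf4 encodes platelet factor 4, a chemokine stored in alpha granules, and Treml1 encodes a receptor of alpha granule membranes. Plek encodes pleckstrin, a protein kinase C substrate that is also abundant in myeloid cells. Rab27b encodes a small GTPase of granule secretion, also used by mast cells, and Cavin2 encodes a caveola coat protein that binds phosphatidylserine. CD41, the integrin alpha IIb chain, is the product of Itga2b.

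The promoters of Pf4 and of 3 GPIb-IX-V subunit genes are shown because the results below turn on these genes. Each is the 150 bases before the RefSeq start on GRCm38.p6, written 5′ to 3′ on the strand of the gene. Capitals mark the letters searched on both strands: for GATA, the letters AGATAA and the letters AGATAG, with TGATAA besides and with TGATAG besides; for ETS, the letters AGGAAG and the letters CGGAAG.
Pf4, chr5:90772285-90772434, plus strand: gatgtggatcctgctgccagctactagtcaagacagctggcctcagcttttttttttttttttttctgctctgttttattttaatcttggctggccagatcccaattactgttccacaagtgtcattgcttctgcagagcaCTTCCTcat
Gp1bb, chr16:18622404-18622553, minus strand: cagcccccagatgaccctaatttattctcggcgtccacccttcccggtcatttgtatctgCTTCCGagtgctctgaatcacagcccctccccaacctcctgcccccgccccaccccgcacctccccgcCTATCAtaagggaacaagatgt
Gp9, chr6:87777920-87778069, plus strand: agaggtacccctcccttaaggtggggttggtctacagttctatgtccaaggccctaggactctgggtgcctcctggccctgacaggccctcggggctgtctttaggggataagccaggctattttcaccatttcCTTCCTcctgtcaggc
Gp5, chr16:30310782-30310931, minus strand: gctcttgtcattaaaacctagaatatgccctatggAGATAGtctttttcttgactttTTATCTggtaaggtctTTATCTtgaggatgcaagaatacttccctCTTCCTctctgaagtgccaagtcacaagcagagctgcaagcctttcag

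The Gp5 window held 3 GATA matches, 115, 93 and 77 bases before the start, and 1 ETS match 48 bases before it. Gp1bb had 1 GATA match at 22 bases and 1 ETS match at 90 bases. Pf4 and Gp9 had an ETS match 9 and 16 bases before the start and no GATA match in this window. Of the 8 listed genes found in the promoter table, 3 had GATA letters (Gp1bb, Gp5 and Gp6), 4 had ETS letters and 2 had both. Over all 32851 promoter windows of this length, 16% held GATA letters, 28.02% ETS letters and 3.787% both. A match of letters describes the sequence and does not show that a factor binds there.

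All 10 are protein-coding genes. On GRCm38, Pf4 (ENSMUSG00000029373) lies at chr5:90772435-90773383, Gp9 (ENSMUSG00000030054) at chr6:87778072-87779768 and Gp5 (ENSMUSG00000047953) at chr16:30307685-30310779. Gp1bb (ENSMUSG00000050761), at chr16:18620317-18622403, overlaps Sept5 on the same strand. How reads in the overlap were counted is not given in the sources used here, so the counts of Gp1bb are uncertain. Vwf spans chr6:125546774-125686679, Cavin2 chr1:51289126-51302960, Treml1 chr17:48359916-48367176, Plek chr11:16971206-17052381 and Gp6 chr7:4363965-4397744. Cavin2 overlaps an antisense transcript and Plek overlaps Cnrip1 on the opposite strand, and whether the counting used strand is not given in the sources used here.

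The first comparison asked how the summed counts of these genes differed between the control library and the library labelled as Utx-deleted. Over all kept cells every one of the 9 detected genes had a lower CPM in the library labelled as Utx-deleted, and 4 were at least 2-fold lower: Gp9, Gp5, Treml1 and Vwf. Among the 13543 genes with at least 100 UMIs, 6.76% passed 2-fold in either direction, 5.45% being lower and 1.31% higher. The median log2 ratio of the 9 genes was −0.97, beside −0.12 over all genes, of which 71.0% lay below 0. Scaling by TMM, which moves all ratios by 0.129, brought the median of the 9 to −0.85 and Vwf to −0.88, inside 2-fold. In hashtag 2 alone Treml1, at −0.48, was inside 2-fold as well. A sum over cells cannot tell fewer cells of a type from less RNA in each, so the same genes are given within cell sets below.

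Gp9 and Gp5, which encode chains of the GPIb-IX-V receptor, had the lowest ratios of the 9 genes. Gp9 had 275 control UMIs and 46 in the other library, or 2.53 and 0.406 CPM, a log2 ratio of −2.61 (−3.12 to −2.18). It was detected in 3.02% of cells in the first and 0.489% in the second. Gp5 had 456 and 92 UMIs, 4.19 and 0.813 CPM, a log2 ratio of −2.35 (−2.71 to −2.04). Both genes were lower in each hashtag. Gp9 was at −2.53 in hashtag 1 and −2.39 in hashtag 2, and Gp5 at −2.35 and −1.96. Gp1bb, the beta chain of GPIb, had 167 and 88 UMIs and a log2 ratio of −0.97 (−1.37 to −0.60).

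Vwf had 516 control UMIs and 267 in the other library, a log2 ratio of −1.01 (−1.23 to −0.79). Treml1 had 275 and 119 UMIs, with a log2 ratio of −1.26 (−1.59 to −0.95). The alpha granule chemokine gene Pf4 had 7496 and 5594 UMIs, 68.9 and 49.4 CPM, and a log2 ratio of −0.48 (−0.53 to −0.43). Cavin2 (826 and 488 UMIs, −0.82), Plek (7867 and 6244 UMIs, −0.39) and Rab27b (1624 and 1300 UMIs, −0.38) were also lower by less than 2-fold. These smaller differences were not alike in the hashtags: in hashtag 2 alone Pf4 was at 0.33, Rab27b at 0.25, Cavin2 at −0.02 and Vwf at −0.10, against −0.69, −0.50, −1.14 and −1.24 in hashtag 1. Gp6 had 0 UMIs in both libraries, which, taken as up to 3 counts, allows a share of up to 0.0427% of control cells and 0.0419% of the other cells with a UMI.

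**Figure D1:**
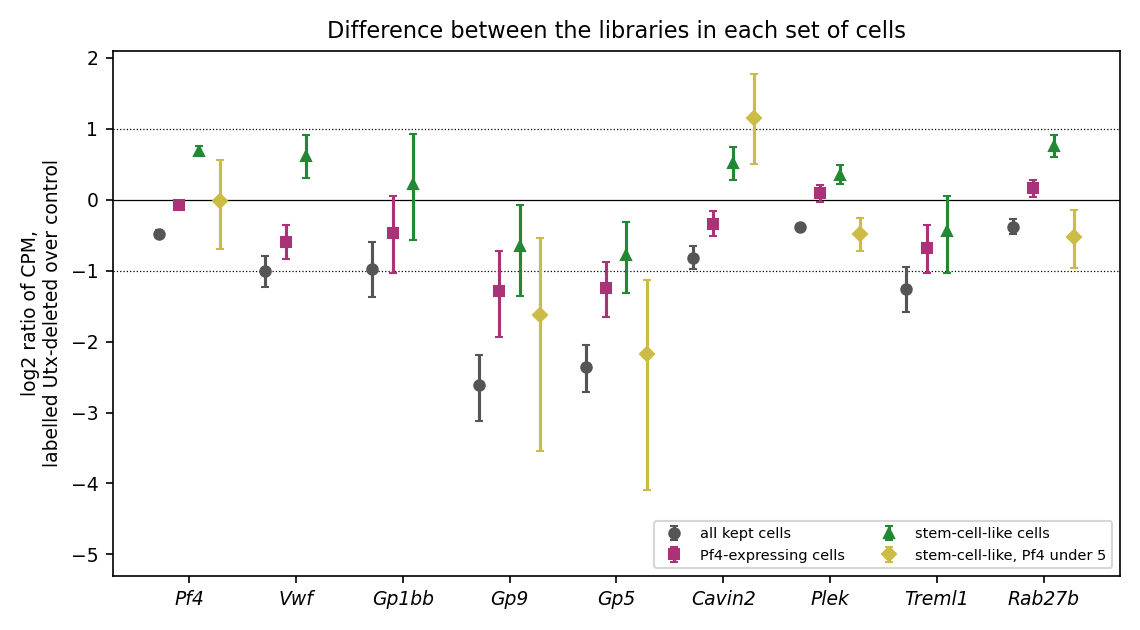
Log2 ratio of CPM (library labelled as Utx-deleted over control, vertical axis) of each detected gene in all kept cells, Pf4-expressing cells, stem-cell-like cells and stem-cell-like cells with fewer than 5 Pf4 UMIs (the last 2 sets are described further on); points are ratios of summed UMIs of 1 library each, bars their 95% exact Poisson intervals (counting error only), and dotted lines 2-fold. Gp9 and Gp5 lie at −2.61 and −2.35 over all cells and at −1.28 and −1.25 in Pf4-expressing cells, while Plek and Rab27b lie near 0 in Pf4-expressing cells.

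Cells with at least 5 Pf4 UMIs were taken as Pf4-expressing. They numbered 98 of 7020 cells in the control library, 1.40% (1.13 to 1.70), and 57 of 7157 in the other, 0.796% (0.604 to 1.03). The difference lay in hashtag 1, with 62 cells (1.91%) against 24 (0.763%); in hashtag 2 the numbers were 32 (0.912%) and 31 (0.877%). At 50 or more Pf4 UMIs, 46 (0.655%) and 30 (0.419%) cells were counted. Clustering placed 94 of the 98 and 54 of the 57 in 1 cluster, led by Pf4 and Car1, which numbered 386 cells in the control library and 143 in the other.

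Markers outside the list describe these cells further. Of 10 other megakaryocyte markers, 9 were detected in the Pf4-expressing cells of each library, with a summed 700 and 653 CPM, and Tubb1, the tubulin of platelet formation, was at 0. Itga2b was at 311 and 262 CPM, a log2 ratio of −0.24 (−0.40 to −0.09). The HSC/MPP markers (stem and multipotent progenitor genes) summed to 1809 and 1440 CPM, with 7 and 6 of 8 detected and Procr at 0 in both. Of 9 erythroid markers, 9 were detected in the control cells and 5 in the others, where Car1, Hba-a1, Hbb-bs and Ermap were at 0, and they summed to 471 and 185 CPM. The summed neutrophil markers, with 8 of 8 detected in both, were at 7423 and 19068 CPM, although the median cell gave 0.121% and 0.134% of its UMIs to them. More than 1% of UMIs came from neutrophil markers in 7 of 98 control cells and 9 of 57 other cells. Without those cells the log2 ratios were −1.23 for Gp9 and −1.19 for Gp5.

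Within Pf4-expressing cells Gp9 and Gp5 were lower by more than 2-fold in the library labelled as Utx-deleted. No other listed gene passed 2-fold there, and Plek and Rab27b had somewhat higher CPM, although Plek was at −0.05 in cells with 20 or more Pf4 UMIs and Rab27b at −0.0049 after thinning to 5000 UMIs. Among the 8688 genes with at least 50 UMIs in these cells, 2.79% passed 2-fold, 1.5% being lower and 1.29% higher. Of the 9 detected genes 7 had a lower CPM, among them Pf4, which chose the cells, and 54.9% of all genes did. They had a median log2 ratio of −0.47 beside −0.03 over all genes. The cells of the library labelled as Utx-deleted were the deeper ones, with a median of 33315 UMIs against 24482.

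Gp9, the glycoprotein IX chain that assembles with both GPIb chains, ranged from 0 to 4 UMIs per cell in both libraries. The median was 1 in the control cells and 0 in the others. Summed, 100 and 32 UMIs gave 37.7 and 15.2 CPM, a log2 ratio of −1.28 (−1.93 to −0.73). It was detected in 58.2% of control cells and 38.6% of the others, and in 21.6% and 5.36% after each cell was thinned to 5000 UMIs. In maturing-neutrophil-like cells, which should lack the gene, it was detected in 0.944% and 0.0383%. The ranges over single cells overlap. The 100 control UMIs lay in 57 cells and the other 32 UMIs in 22 cells.

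Gp5, the glycoprotein V chain, ranged from 0 to 8 UMIs per control cell with a median of 2, and from 0 to 6 with a median of 1 in the other library. Its CPM was 86.3 in control cells and 36.04 in the others, a log2 ratio of −1.25 (−1.65 to −0.88). The share of cells with a Gp5 UMI was 81.6% and 61.4%, or 38.1% and 8.93% after thinning. Both hashtags gave the same direction: Gp5 was at 97.5 and 42.9 CPM in hashtag 1 and at 71.4 and 32.2 CPM in hashtag 2. Gp9 was at 39.9 and 19.2 CPM in hashtag 1, a log2 ratio of −0.996 and so just inside 2-fold, and at 32.9 and 12.7 CPM in hashtag 2, a log2 ratio of −1.33.

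The other receptor chains also had lower CPM. Gp1bb ranged from 0 to 8 and 0 to 5 UMIs per cell, with a median of 0 in both, and its 30.5 and 21.8 CPM gave a log2 ratio of −0.47 with an interval reaching past 0 (−1.04 to 0.05). It was detected in 43.9% of control cells and 47.4% of the others. Gp1ba, the chain that binds von Willebrand factor and no member of the list, had 32 and 6 UMIs, too few for the 2-fold call, at 12.1 and 2.85 CPM, a log2 ratio of −1.91 (−3.63 to −0.81). Of the 4 chains, Gp9 and Gp5 thus passed 2-fold, Gp1ba could not be called and Gp1bb, whose counts are uncertain because of Sept5, did not pass, and the intervals of all 4 overlap.

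Vwf, the ligand of this receptor, ranged from 0 to 29 UMIs per control cell (median 3) and from 0 to 21 in the others (median 2). It was at 164 and 109 CPM, a log2 ratio of −0.59 (−0.83 to −0.36). That difference lay in hashtag 1, where Vwf was at 192 and 122 CPM; in hashtag 2 it was at 105 and 102 CPM. With every cell thinned to 5000 UMIs, which gives cells equal weight, Vwf was at −1.11 and so past 2-fold. Treml1 ranged from 0 to 10 and from 0 to 12 UMIs per cell, at 82.5 and 51.2 CPM, a log2 ratio of −0.68 (−1.03 to −0.35), and was lower in both hashtags (−0.89 and −0.56).

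Pf4 itself chose these cells and is given only as a description: it ranged from 5 to 448 UMIs per control cell (median 39.5) and from 5 to 378 in the others (median 59), and was at 2737 and 2607 CPM. Cavin2 had a median of 5 UMIs per cell in both libraries and was at 260 and 206 CPM, a log2 ratio of −0.34 (−0.52 to −0.16) that turned to 0.15 when cells with 1 Pf4 UMI were included. Plek was at 466 and 496 CPM, a log2 ratio of 0.09 (−0.03 to 0.21), and Rab27b at 439 and 491 CPM, 0.16 (0.04 to 0.28). For Rab27b the median cell held 9 UMIs among control cells and 16 among the others, in cells that also had more UMIs in all. Gp6 had 0 UMIs, which by the same limit of 3 counts allows a share of up to 3.06% of the control and 5.26% of the other Pf4-expressing cells with a UMI.

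**Figure D2:**
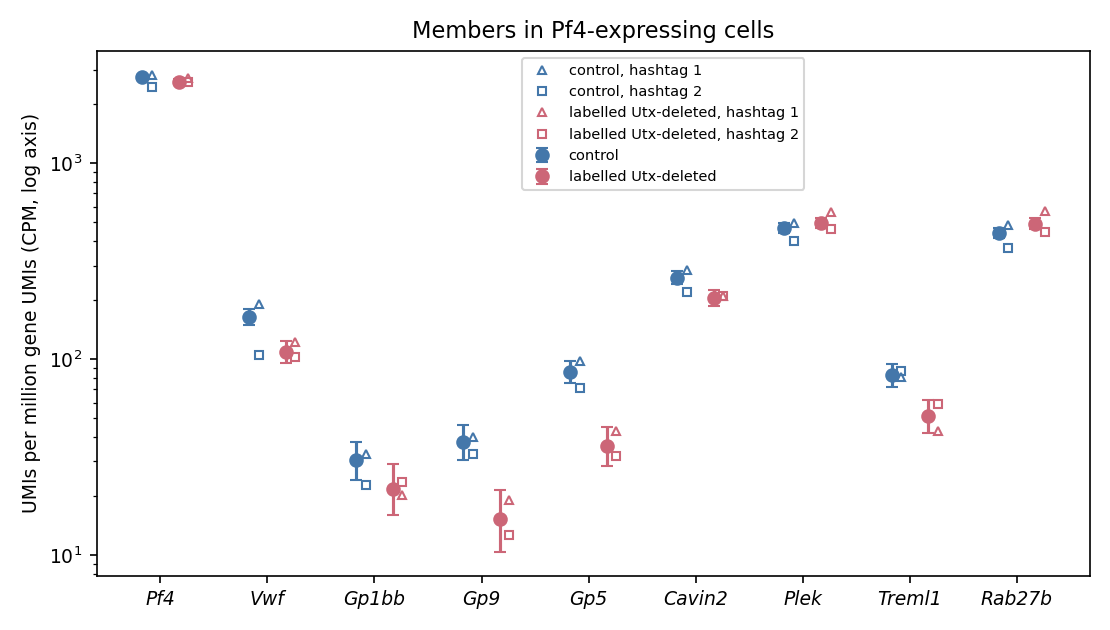
CPM of each detected gene summed over Pf4-expressing cells (vertical log axis); filled circles are the whole library (98 control cells and 57 cells labelled as Utx-deleted) with 95% exact Poisson intervals, counting error only, and open triangles and squares are the cells of hashtags 1 and 2. Gp9 (37.7 and 15.2 CPM) and Gp5 (86.3 and 36.04 CPM) lie lower in the library labelled as Utx-deleted in both hashtags, while the points for Plek and Rab27b lie close together.

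A second list, of 48 other megakaryocyte and platelet genes, put these values beside the rest of the programme. In Pf4-expressing cells 41 of them could be called, with a median log2 ratio of −0.09. Of these, 4 were at least 2-fold lower and 1 higher, beside 1.5% and 1.29% of all genes, whose median was −0.03. Mmrn1, which encodes an alpha granule protein that holds factor V, was at 104 and 26.6 CPM (−1.94). Slamf1, the gene of the stem cell antigen CD150, was at 27.1 and 8.06 CPM (−1.69). Tpm4, a tropomyosin gene, was at 30.5 and 9.96 CPM (−1.57), and Lat, an adaptor of glycoprotein VI signalling, at 55.4 and 18.5 CPM (−1.56).

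The one that was higher, Thbs1 (thrombospondin, also made by myeloid cells), was at 14.7 and 32.2 CPM (1.12), and over all kept cells at 57.6 and 120 CPM. The neutrophil marker sum was also higher in these cells, as given above, and its part in the Thbs1 value was not tested. None of the 8 transcription factor genes passed 2-fold: Gata1 was at 57.3 and 48.4 CPM, Fli1 at 1221 and 1365 CPM and Runx1 at 1444 and 1591 CPM. Over all kept cells 15 of 42 genes of this list were at least 2-fold lower (5.45% of all genes were) and 1 was higher (1.31% of all genes), with a median of −0.52 beside −0.12 over all genes. The 5 most different there were Lat (−2.66, 510 and 83 UMIs), Mmrn1 (−2.52, 413 and 74 UMIs) and 3 receptor genes, F2rl3 (−1.82), F2r (−1.76) and Tbxa2r (−1.74).

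Co-detection was high in both libraries. A Pf4-expressing control cell held UMIs of 6.12 of the other 9 listed genes on average, and a cell of the other library 5.63, although the latter were deeper. Thinned to 5000 UMIs, the means were 3.64 and 2.93 over 97 and 56 cells. At least 4 others were found in 90 cells (91.8%) and 50 cells (87.7%), and all 8 others that were detected anywhere in 21 cells (21.4%) and 9 cells (15.8%). Maturing-neutrophil-like cells, by comparison, held 0.615 and 0.487 of the other genes, at a lower median depth of 9009 and 9622 UMIs. Thinned to 5000 UMIs, their means were 0.410 and 0.306. Of these cells 4326 of 4447 and 5174 of 5223 held none of the 8 listed genes other than Pf4 and Plek.

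The 3 listed GPIb-IX-V genes were found together in 26 control cells, 26.5% (18.1 to 36.4), and 12 other cells, 21.1% (11.4 to 33.9). That direction turned between hashtags, with 27.4% and 20.8% in hashtag 1 and 15.6% and 22.6% in hashtag 2. Cells with none of the 3 numbered 8 (8.16%, 3.59 to 15.5) and 15 (26.3%, 15.5 to 39.7). By hashtag, none of the 3 was found in 6.45% and 20.8% of cells in hashtag 1, and in 12.5% and 25.8% in hashtag 2. Gp9 with Gp5 was seen in 49 of 98 and 17 of 57 cells and Vwf with Gp5 in 65.3% and 52.6%, while Gp1bb with Gp5 was seen in 37.8% and 38.6%.

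**Figure D3:**
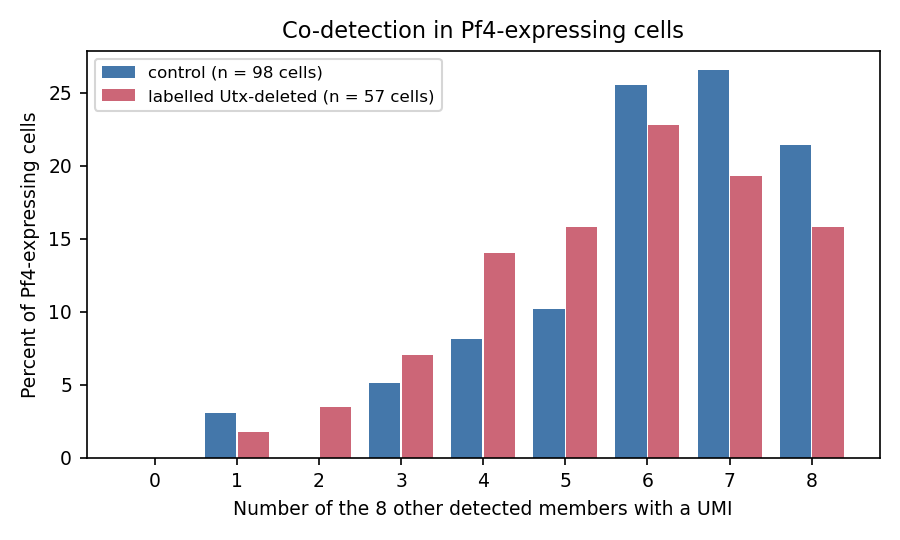
Percent of Pf4-expressing cells (vertical axis) by the number of other listed genes with a UMI (horizontal axis), for the 98 control cells and the 57 cells of the library labelled as Utx-deleted. Most cells of both libraries hold 5 or more of the other genes, with 21 and 9 cells at 8.

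More of the other genes were detected in cells with more Pf4. In control cells the mean number of other genes was 1.10 at 1 Pf4 UMI, 3.15 at 2 to 4, 5.36 at 5 to 19 and 6.89 at 50 or more. In the other library it was 0.857, 3.17, 4.07 and 6.50. Depth differed along the same bins: the median was 19549 and 20828 UMIs per cell at 1 Pf4 UMI, and 33117.5 and 37167.5 at 50 or more, and its part in these means was not tested. Just under the threshold of 5 Pf4 UMIs lay 34 control and 12 other cells with 2 to 4, and just inside it 36 and 15 cells with 5 to 19. Gp5 was detected in 77.8% of control cells and 33.3% of the others at 5 to 19 Pf4 UMIs, and in 93.5% and 83.3% at 50 or more. Gp9 was detected in 58.3% and 20% at 5 to 19 and in 63.0% and 46.7% at 50 or more. At 20 to 49 Pf4 UMIs, in 16 and 12 cells, Gp5 was detected in 56.25% and 41.7% and Gp9 in 43.75% and 41.7%. At 1 Pf4 UMI Gp5 was detected in 14.3% and 7.94%. Both genes were thus found in a smaller share of cells of the library labelled as Utx-deleted in each of these bins, by gaps of unequal size over few cells.

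The CD41 tag went the other way from Itga2b. In Pf4-expressing cells its median was 203.5 tag UMIs among control cells and 393 among the others, or 1729 and 3434 per 10000 tag UMIs of the cell. The lower and upper quartiles were 93.5 and 333.75 tag UMIs in control cells and 191 and 583 in the others, so the cells of the libraries overlap. Both hashtags gave this direction, with medians of 215 and 356.5 in hashtag 1 and of 134.5 and 449 in hashtag 2. The tag total per cell was close, with medians of 1104 and 1139.

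CD41 also followed Pf4 within each library. Its median was 1 tag UMI in cells without Pf4 in both libraries. At 1 Pf4 UMI it was 8 in the control library and 2 in the other, and at 2 to 4 it was 36 and 111. In the control library it was 91 at 5 to 19 Pf4 UMIs, 161.5 at 20 to 49 and 299.5 at 50 or more. The same bins held 146, 451.5 and 504.5 in the library labelled as Utx-deleted. Itga2b in these bins was at 220, 293 and 367 CPM in control cells and at 133, 181 and 337 CPM in the others. At each of the 3 levels from 5 Pf4 UMIs up the tag was thus higher and the transcript lower in the library labelled as Utx-deleted. At 50 or more Pf4 UMIs the transcript values were close, from 536 and 413 Itga2b UMIs. No interval is given for these bins.

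**Figure D4:**
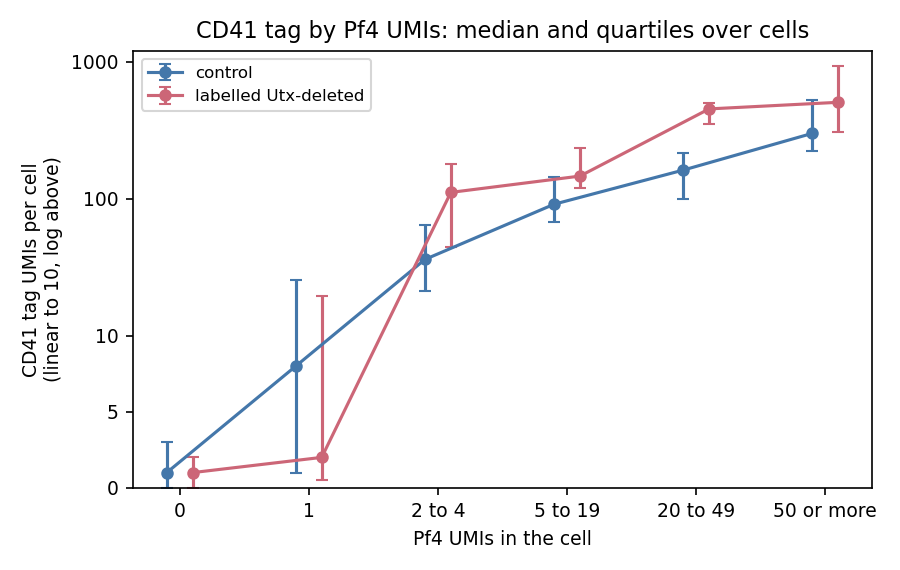
CD41 tag UMIs per cell (vertical axis, linear to 10 and log above) by the number of Pf4 UMIs in the cell (horizontal axis), for each library; points are medians over cells and bars the quartiles, which show spread between cells and not between replicates. The median reaches 299.5 tag UMIs in control cells and 504.5 in the other library at 50 or more Pf4 UMIs.

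The listed genes differed in how far they lay outside the Pf4-expressing cells. Pf4-expressing cells held 84.3% and 85.8% of Vwf, 83.7% and 88.9% of Cavin2 and 79.6% and 90.8% of Treml1. Their 96.9% and 98.3% of Pf4 follow from how they were chosen. They held 15.7% and 16.8% of Plek, of which 61.0% and 66.9% lay in maturing-neutrophil-like cells. Of Rab27b, Pf4-expressing cells held 71.7% and 79.6%, with 1.35% and 10.1% in basophil- or mast-cell-like cells.

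The share held by Pf4-expressing cells differed most for Gp5 and Gp9. Pf4-expressing cells held 50.2% of Gp5 in the control library and 82.6% in the other. For Gp9 the shares were 36.4% and 69.6%. The rest of the Pf4 and Car1 cluster, cells with fewer than 5 Pf4 UMIs, numbered 292 and 89. There Gp5 had 204 and 13 UMIs, 30.04 and 6.32 CPM, a log2 ratio of −2.15 (−3.18 to −1.44), and was detected in 40.8% and 14.6% of cells. Gp9 had 71 and 3 UMIs there, 10.5 and 1.46 CPM. Vwf had 39 and 3 UMIs, 5.74 and 1.46 CPM. In the same cells Cavin2 (18.99 and 19.4 CPM) and Rab27b (39.8 and 41.3 CPM) were close in the 2 libraries, while Plek was at 61.4 and 82.6 CPM and Itga2b at 86.4 and 70.0 CPM. Pf4, whose counts the choice of these cells limits, was at 15.02 and 15.06 CPM.

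These cells also carry erythroid genes. Car1, a carbonic anhydrase, was at 1197 and 802 CPM, but at 1043 and 1887 CPM in hashtag 1, where 6 cells of the second library held all its UMIs, and at 1227 and 272 CPM in hashtag 2. Klf1, an erythroid transcription factor, was at 76.9 and 31.1 CPM and lower in both hashtags (80.2 and 45.04, then 70.3 and 22.5). Maturing-neutrophil markers (8 of 8 detected in both) summed to 4246 and 16158 CPM in these cells, with a median of 0.126% and 0.163% of a cell's UMIs. By hashtag these sums were 5024 and 1463 CPM in hashtag 1 and 3384 and 17246 CPM in hashtag 2, so the direction turned. Basophil and mast cell markers (5 and 6 of 6 detected) summed to 613 and 1056 CPM. Their part in the Gp5 and Gp9 values was not tested. Split at 5 Car1 UMIs, a split chosen after its values were seen, Gp5 was at 24.9 and 6.59 CPM in the 116 and 20 cells with at least 5, and at 34.6 and 6.20 CPM in the 176 and 69 cells with fewer. These values rest on 80 and 4 Gp5 UMIs, then on 124 and 9, so those of the library labelled as Utx-deleted are uncertain. In control cells with at least 5 Car1 UMIs, Pf4 was at 3.74, Cavin2 at 3.42, Gp9 at 3.42, Plek at 10.3 and Rab27b at 15.9 CPM. In control cells with fewer these 5 genes were at 25.1, 33.0, 16.8, 107.3 and 61.2 CPM. Gp5 thus differed less between these control cells than each of the 5 did.

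Gp9 and Gp1bb were also found at a low level in maturing-neutrophil-like cells, with 45 and 3 UMIs of Gp9 and 58 and 35 UMIs of Gp1bb in 4447 and 5223 cells. For each Gp9 UMI these cells held 1.09 and 11.3 Pf4 UMIs. In cells of the HSC/MPP-like cluster (589 and 277 cells, named from stem and multipotent progenitor markers) Gp9 had 29 and 3 UMIs, 1.74 and 0.341 CPM. Gp9 thus had lower CPM in the library labelled as Utx-deleted in each of these cell sets, among them sets with little Pf4. The maturing-neutrophil-like cells of the 2 libraries lay largely in different clusters. The largest such cluster held 1512 control and 35 other cells and the next 51 and 1397, although another held 351 and 294. The Gp9 values there therefore compare largely different clusters.

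**Figure D5:**
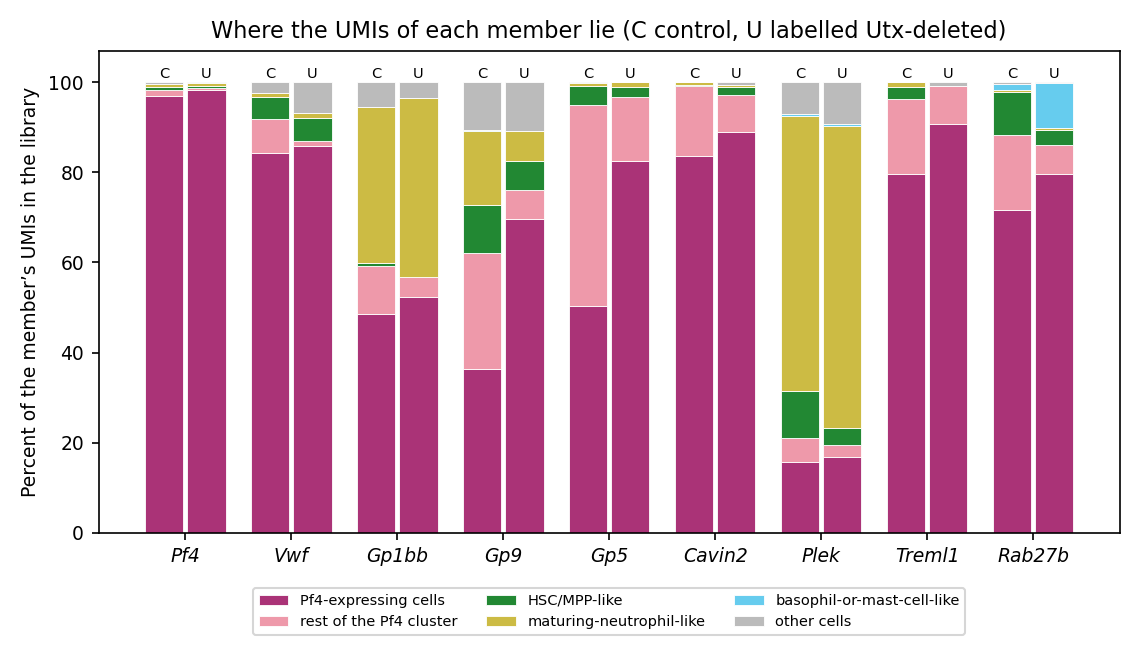
Percent of each gene's UMIs that lay in Pf4-expressing cells, the rest of the Pf4 and Car1 cluster, HSC/MPP-like, maturing-neutrophil-like, basophil- or mast-cell-like and other cells, for each library (each bar sums to all UMIs of the gene in that library). Pf4-expressing cells hold 50.2% of Gp5 UMIs for the control and 82.6% for the other library; the high share of Pf4 follows from how these cells were chosen.

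Stem-cell-like cells were those with at least 1 UMI each of Hlf and Mecom, transcription factor genes of haematopoietic stem cells, a choice that uses no listed gene. They numbered 497 (7.08%) in the control library and 175 (2.45%) in the other. Hlf itself was at 163 and 98.6 CPM in the HSC/MPP-like cluster (−0.72), and at 32.2 and 30.8 CPM in the Pf4 and Car1 cluster (−0.06). The part of the Hlf difference in which cells passed was not tested. Of the stem-cell-like cells 49, or 9.86% (7.38 to 12.8), were also Pf4-expressing in the control library and 27, or 15.4% (10.4 to 21.6), in the other. Pf4 or Vwf was detected in 127 of 497, 25.6% (21.8 to 29.6), and in 46 of 175, 26.3% (19.9 to 33.5), beside 1.17% and 0.689% of maturing-neutrophil-like cells. Thinned to 5000 UMIs the shares were 12.9% and 18.97%, over 496 and 174 cells. Both genes were found in the same cell in 8.85% and 14.3%.

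No listed gene passed 2-fold in stem-cell-like cells, where 4.88% of 11422 genes did (3.13% lower and 1.75% higher). Pf4 was at 294 and 472 CPM, a log2 ratio of 0.68, Rab27b at 56.4 and 95.1 CPM (0.76), Vwf at 16.2 and 24.8 CPM (0.61) and Cavin2 at 29.5 and 42.1 CPM (0.52). Gp9 was at 7.34 and 4.55 CPM (−0.65, but 0.20 in hashtag 1 alone), Gp5 at 12.6 and 7.24 CPM (−0.78) and Treml1 at 9.10 and 6.57 CPM (−0.45, but 0.64 in hashtag 1 alone). In hashtag 1 alone, with 254 and 61 cells, the ratios of Pf4 (1.57), Rab27b (1.43), Vwf (1.19) and Plek (1.16) were past 2-fold higher. No share over all genes is given for hashtag 1 alone, so these ratios have no background to stand beside. In all stem-cell-like cells the median over the 9 genes was 0.35, beside −0.02 over all genes. In the HSC/MPP-like cluster 3 of the genes had enough UMIs, and all 3 were lower: Pf4 (−1.81), Rab27b (−1.09) and Plek (−0.80). No share over all genes is given for this cluster. Of its 164 and 24 Pf4 UMIs, 52 and 19 lay in the 586 and 276 cells that were not Pf4-expressing, at 3.14 and 2.16 CPM. The size of the Pf4 ratio thus rests on few control cells. The direction of Pf4, Rab27b and Plek depends on how stem-cell-like cells are drawn.

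The gate mixes cells with and without Pf4, and the values differ between them. In stem-cell-like cells that were Pf4-expressing, Gp5 was at 74.8 and 33.5 CPM, Gp9 at 38.8 and 19.4, Treml1 at 73.4 and 30.9, Vwf at 140 and 123 and Rab27b at 381 and 442 CPM. In the 448 and 148 stem-cell-like cells with fewer than 5 Pf4 UMIs, Gp5 had 71 and 5 UMIs, a log2 ratio of −2.18 (−4.09 to −1.13), and Gp9 had 48 and 5 UMIs, −1.62 (−3.54 to −0.54). The median cell of this set gave 0.120% and 0.514% of its UMIs to the 7 neutrophil progenitor markers, all detected in both libraries, which summed to 6423 and 9148 CPM. Maturing-neutrophil markers summed to 7778 and 13092 CPM, with 3319 and 8417 CPM in hashtag 1 and 9705 and 8232 CPM in hashtag 2. The whole set also holds cells given to neither hashtag. Of all stem-cell-like cells, 18 of 497 and 9 of 175 carried both hashtags. The erythroid genes Car1 and Klf1 were at 16.2 and 0.624 CPM and at 3.38 and 1.46 CPM. The part of these differences in the Gp5 and Gp9 values was not tested. Of 6 listed genes with enough UMIs there, these 2 were at least 2-fold lower and 1 was at least 2-fold higher. Over all 11166 genes 4.69% passed, 3.17% lower and 1.52% higher. The one that was higher was Cavin2, with 48 and 40 UMIs, 3.77 and 8.32 CPM, a log2 ratio of 1.15 (0.50 to 1.78). Its UMIs came from 16 and 10 cells, the highest with 12 and 8, and its ratio was 0.29 in hashtag 1 and 2.20 in hashtag 2.

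In these cells 28 and 7 UMIs of Vwf gave 2.20 and 1.46 CPM. Pf4, which the choice of these cells keeps low, had 85 and 31 UMIs, 6.68 and 6.45 CPM. Pf4 or Vwf was detected in 17.4% (14.0 to 21.2) and 12.8% (7.91 to 19.3) of them. Plek was at 58.0 and 41.2 CPM and Rab27b at 19.5 and 13.3 CPM. They held 1.21 and 0.919 other listed genes per cell on average, against 6.24 and 5.67 in stem-cell-like cells that were Pf4-expressing. Thinned to 5000 UMIs these means were 0.416 and 0.408, against 3.37 and 2.78. Of the cells with fewer than 5 Pf4 UMIs, 301 of 448 and 116 of 148 held none of the 8 listed genes other than Pf4 and Plek.

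CD41 on stem-cell-like cells was low in both libraries, with a median of 15 tag UMIs among control cells and 19 among the others, or 104 and 163 per 10000. Those with fewer than 5 Pf4 UMIs had medians of 13.5 and 15, and those that were Pf4-expressing 211 and 434. In the HSC/MPP-like cluster the medians were 14 and 11. Of the second list, 6 of 40 genes passed 2-fold in stem-cell-like cells, 3 in each direction (4.88% of all genes passed, 3.13% lower and 1.75% higher), led by Thbs1 (2.38), Tpm4 (−2.01), Lat (−1.96), the integrin beta 3 gene Itgb3 (1.54) and F5 (1.39), which encodes coagulation factor V. The summed neutrophil markers, 8 of 8 detected in both, were at 7722 and 14449 CPM in these cells, and 28 of 497 and 22 of 175 cells gave over 1% of their UMIs to them. Their part in the Thbs1 value was not tested.

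Over the 23 clusters with at least 30 cells, the genes whose level followed the mean profile of the listed genes most closely were Zg16, Slc25a21, Pdzph1, Ermap, Gm15915, Nlgn1, Samd14, Kcnj5, Timp3 and Car1, with Pearson's r between 0.984 and 0.989 across clusters. These clusters share 2 libraries. Pf4 was at 945.5 CPM in the Pf4 and Car1 cluster and at 7.39 CPM in the next highest, so a high r can rest on 1 cluster. How far r depends on that cluster was not tested. The listed genes themselves ran from 0.987 for Gp5 and Treml1 to 0.870 for Gp9 and 0.411 for Plek. Likeness across clusters did not mean the same cells: Car1 was at 3.77 and 0 CPM and Slc25a21 at 0.754 and 0 CPM in Pf4-expressing cells. Timp3 was at 99.5 and 95.3 CPM there and Kcnj5 at 28.3 and 73.0 CPM.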

How the data were processed

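The authors deposited raw counts of UMIs per gene and antibody tag for each cell barcode, 1 library per group. The submitters' processing notes name Cell Ranger 7.1.0 and mm10. Cells were kept at 500 or more genes and under 10% mitochondrial UMIs, and the top 6% of Scrublet scores in each library were left out as doublets (458 and 512 cells), because the automatic threshold marked 0.0267% and 0%. Clusters came from scanpy 1.11.5 (2000 variable genes, 30 components, 15 neighbours, Leiden resolution 1; 24 clusters, of which 4 stayed unnamed and 1 is called by its leading genes, Pf4 and Car1). Counts were summed over the cells of a library, divided by all gene UMIs (CPM) and compared as a log2 ratio with 1 UMI added to each sum. A gene was called at 2-fold with at least 100 UMIs (50 in cell subsets). Hashtags needed 100 UMIs and 5 times the other hashtag. Kept cells with both hashtags (209 and 439) or with neither (48 and 39) are counted in whole sets but in neither hashtag. Whether cells with both hashtags are doublets was not tested. Gene identifiers were matched to GENCODE M21 (99.8%), and promoters were taken from RefSeq. The listed genes, marker lists and named-gene rule (the 5 most different of the second list past 2-fold in each comparison, and the 10 genes most alike over clusters) were chosen with earlier results of these data known. The steps were tested on simulated data. One gene of the erythroid marker list is not reported here.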

Additional observations from a re-analysis of the deposited data

Results flagged for a closer look

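Some ratios between the libraries pointed in opposite directions in different cell sets; none of these differences was tested. Cavin2 was at −0.34 in Pf4-expressing cells and at 1.15 in stem-cell-like cells with fewer than 5 Pf4 UMIs. Rab27b was at 0.16 and −0.53 in the same sets. Over all kept cells Pf4 was at −0.69 in hashtag 1 and 0.33 in hashtag 2, and Rab27b at −0.50 and 0.25.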

How the results depend on the processing

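No paired analysis was possible because each group has 1 library. The median log2 ratio of the listed genes over all kept cells (−0.97) was −0.44 in hashtag 2 alone. In stem-cell-like cells (0.35) it was 1.07 and 0.19 in hashtags 1 and 2, 0.56 at a minimum of 200 UMIs, −1.09 in the HSC/MPP-like cluster (3 genes with enough UMIs) and −0.51 without Pf4-expressing cells, the last an alternative chosen after seeing the data. The CD41 ratio there (0.65) was −0.25 in the HSC/MPP-like cluster. The difference in the share of Pf4-expressing cells (−0.600 points) was −1.14 and −0.035 in hashtags 1 and 2 and −2.13 at 1 Pf4 UMI. Genes past 2-fold numbered 915 over all cells, 242 in Pf4-expressing and 557 in stem-cell-like cells. With no UMI minimum they were 4519, 2759 and 3097, after thinning 579, 70 and 231, at a minimum of 200 UMIs 57 and 188 in the latter sets, and 377 in cells with 1 or more Pf4 UMIs. The cause was not tested, except that a minimum changes the genes counted. In Pf4-expressing cells Gp9 ran from −1.30 to −0.996 and Gp5 from −2.04 to −1.01 over all alternatives that gave a value, and the CD41 ratio from 0.78 to 1.61. The alternatives without neutrophil-rich cells and without the Pf4 cluster were also chosen after seeing the data. Over all cells without the Pf4 cluster Pf4 was at −1.73. Few molecules per cell limit Gp9, Gp5, Gp1bb and Treml1.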

Other observations

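In Pf4-expressing cells other tags also differed between the libraries. The median CD150 tag was 113 in control cells and 49 in the others, beside Slamf1, its gene, at 27.1 and 8.06 CPM. CD48 was at 421.5 and 248, CD117 (Kit) at 167.5 and 120, Sca1 at 11 and 6 and CD34 at 7 and 10. Of these 5 tags CD34 alone had a higher median in the library labelled as Utx-deleted, as CD41 had. The lower tag counts were not limited to these cells. Over all kept cells the medians were 137 and 53 for CD48, 25 and 16 for CD117, 6 and 3 for Sca1 and 2 and 0 for CD150. In the HSC/MPP-like cluster CD48 was at 1022 and 637, Sca1 at 12 and 5 and CD117 at 218 and 228.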
